A study of Mus musculus with 11 samples.

Results

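Proteasome subunits and assembly genes were taken as all genes of the deposited table named Psma, Psmb, Psmc, Psmd, Psme, Psmf or Psmg followed by a digit. Names with -ps were left out. These were 50 of the 50600 genes listed, and 49 of them were among the 15808 genes with enough counts to be tested. The name rule also took in Psmc3ip, whose product works in meiotic recombination and is no proteasome subunit. It stays in the counts over 49 genes, and its values are given apart. Counts came from RNA-seq of C57BL/6 mouse hearts (C57Bl/6J in the study's methods), which the labels give as heart and the methods as ventricles. Pulmonary artery banding (PAB), which narrows the vessel leaving the right ventricle, or a sham operation without the band was done on the day of birth (P0). Hearts were taken on postnatal day 3 (P3) or 7 (P7), with 3 libraries from P3 sham, 3 from P3 PAB, 3 from P7 sham and 2 from P7 PAB hearts. The comparisons address how the neonatal heart responds to pressure overload and how this response moves with age. No label says that replicates came from separate animals or whether animals were pooled, so p-values measure the spread between these libraries.

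The proteasome degrades proteins tagged with ubiquitin. Its 20S core is a barrel of outer alpha rings and inner beta rings, in which the beta subunits encoded by Psmb5, Psmb6 and Psmb7 carry the protease sites. The 19S cap recognizes and unfolds substrates, with ATPases (Psmc) and non-ATPase subunits (Psmd), while dedicated chaperones build the particle and other caps (Psme) bind the core in place of 19S. Interferon induces Psmb8, Psmb9 and Psmb10, which take the places of Psmb5, Psmb6 and Psmb7 to form the immunoproteasome, known for making peptides for MHC class I. Muscle cells use the proteasome to turn over sarcomere proteins.

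Proteasome genes hardly differed between PAB and sham hearts at P3 and were up-regulated in P7 PAB hearts. At P7 the rise was largest in the beta ring of the 20S core, smaller in the 19S cap, and not shared by the activators, of which Psme4 fell. The activator subunit Psme2 rose by 1.6-fold, while its partner Psme1 had a log2 change of -0.04. The immunoproteasome gene Psmb9 was 2.02-fold higher in P7 PAB hearts than in P7 sham hearts, though from a low level, and the call was lost when any of 3 P7 libraries was left out.

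Levels are given as CPM, the count per 1e+06 counts of a library after TMM scaling. Fold changes and their standard errors (SE) come from edgeR (quasi-likelihood test, with the 4 groups in 1 model), and adjusted p-values follow Benjamini and Hochberg over all genes tested. A call needed an adjusted p of at most 0.05 together with a 1.5-fold change, and changes that met only the p threshold are given as changes of any size. Library totals ran from 19274045 to 26820228 counts. The 8 cardiomyocyte markers summed to between 53940 and 65240 CPM in the 9 other libraries and to 45560 and 52020 CPM in P7 PAB hearts, high in all but lowest in P7 PAB. Most of that fall lay in Myh6, with means of 31920 CPM in P7 sham and 17260 CPM in P7 PAB hearts. Library 1 of P7 sham stood apart: genes of MHC class I antigen processing summed to 920 CPM in it and to between 310 and 450 CPM in the other 10 libraries. Its leukocyte markers summed to 150 CPM against 86.7 to 123 CPM elsewhere. Both P7 PAB libraries also showed lower counts for longer genes, where the slope of log2 level, relative to the mean of all libraries, on log2 exonic length was -0.1423 and -0.1320 against -0.0209 to 0.0606 in the other 9 libraries. All 3 P7 sham libraries had high Xist and both P7 PAB libraries had Y-linked counts, so at P7 the operation and the sex of the animals cannot be told apart within that age. In bulk tissue, fewer cells of a type and less RNA per cell cannot be told apart either.

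**Figure D1:**
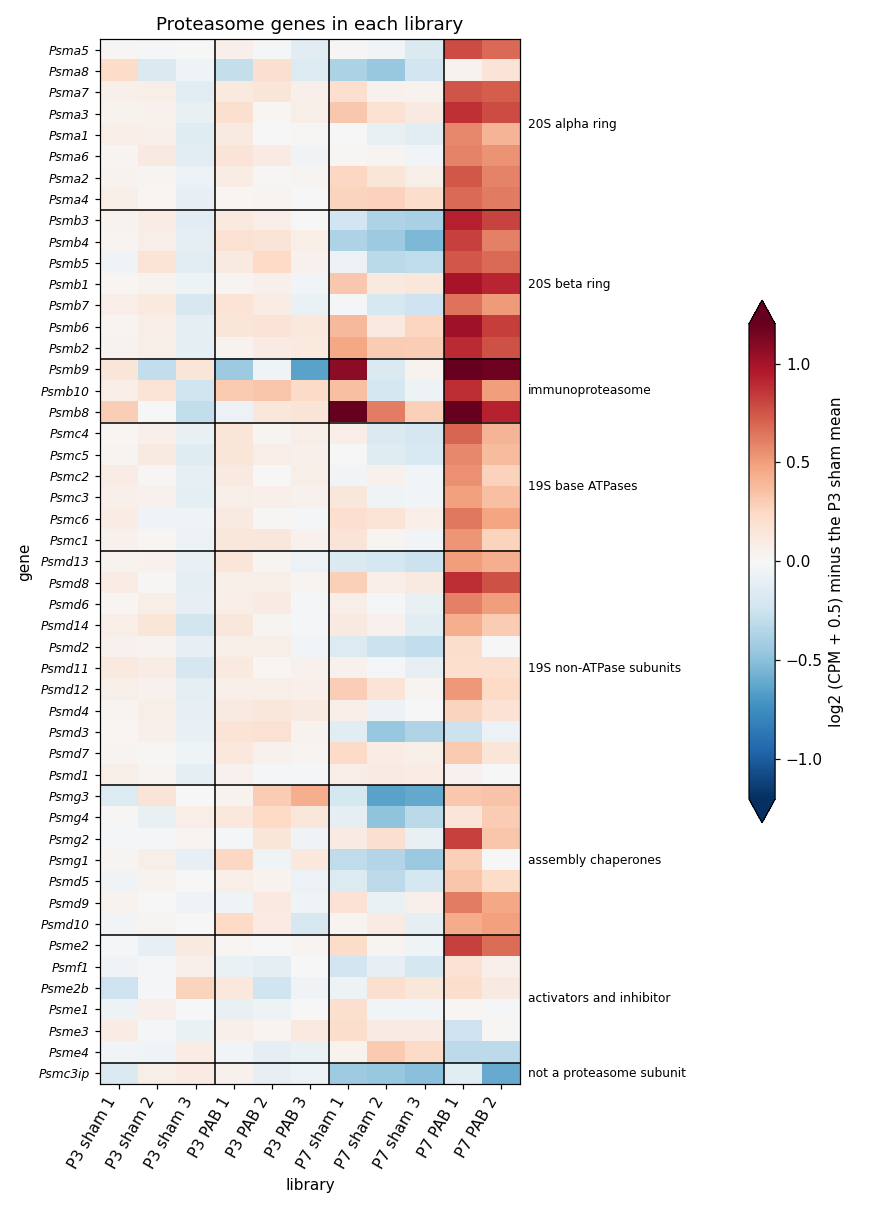
Level of the 49 tested proteasome genes (rows, by class) in each of the 11 libraries (columns), as log2 (CPM + 0.5) minus the mean of P3 sham hearts, with the colour scale ending at 1.2 in either direction. Both P7 PAB libraries are red for most genes of the 20S core, while the 6 P3 libraries are pale, and Psmb8 and Psmb9 are also high in P7 sham library 1.

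At P3, no proteasome gene passed the test in PAB against sham hearts, at the fold threshold or at any size, by edgeR or by DESeq2. At an unadjusted p under 0.05 in edgeR the number was also 0 in either direction. Among all genes tested, 0.114% were higher and 0.0253% lower at an adjusted p of at most 0.05. The median log2 change of the 49 genes was 0.06, against -0.0010 over all genes, with 41 of them above 0. Their changes lay between -0.46 for Psmb9 (SE 0.34, adjusted p = 0.79) and 0.28 for Psmb10 (SE 0.14, adjusted p = 0.62). In 6 of the 49 genes every P3 PAB library was above every P3 sham library, and in 0 below. Over all genes the shares were 8.65% and 8.02%. Psmg3, an assembly chaperone of the alpha ring, had a log2 change of 0.28 with an SE of 0.14 (adjusted p = 0.65).

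At P7, 17 of the 49 genes were called higher in PAB against sham hearts and 0 lower by edgeR and by DESeq2, where the share of all genes tested was 9.63% higher and 8.59% lower. At any size, 37 were higher and 2 lower, against 22.8% and 22.1% of all genes, and at an unadjusted p under 0.05 the numbers were 39 and 2. The median log2 change of the 49 genes was 0.52 and that of all genes -0.0037. In 39 genes both P7 PAB libraries were above all 3 P7 sham libraries, and in 3 both were below, where 30.8% and 29.6% of all genes did so. The 10 genes that did not pass the test were Psma8, Psmb8, Psmc3ip, Psmd1, Psmd3, Psmd7, Psmd11, Psmd12, Psme1 and Psme2b.

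The genes for the proteasome are short, with a median exonic length of 2800 bases against 4219.5 bases over all genes tested. Across genes, the P7 change fell with exonic length, with a Spearman's rho of -0.224 over 49 proteasome genes and -0.385 over 14936 genes, which share the same 5 libraries. With the length trend of each library removed, 8 genes were called higher, which were Psmb1, Psmb3, Psmb4, Psmb7, Psmb9 and Psmg3 of the 17, with Psmd5 and Psmd9 added. In that fit 991 of the 15808 genes tested were called higher and 1127 lower. At any size 29 were then higher and 3 lower, against 19.7% and 18% of all genes, and the median log2 change was 0.34. With a term for the class of each library by Xist and the Y-linked gene Ddx3y, 27 genes were higher at any size and 1 was lower, against 10.6% and 8.8% of all genes, and the median was 0.59. Since P3 sham library 1 was the only P3 library with high Xist, this term rests on that library set against P3 sham libraries 2 and 3, here and wherever it is used. The parts of RNA length and of sex in the P7 change were not tested beyond these fits.

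Markers of several cell types also moved at P7. Of the 8 cardiomyocyte markers, Actc1 was called higher and Myh6 and Ryr2 lower, with Ttn lower at a smaller size. Tnnt2 (-0.06), Tnni3 (-0.06), Mybpc3 (0.14) and Actn2 (-0.10) did not pass the test. Myh7, outside this list, rose from a mean of 276 CPM in P7 sham to 1228 CPM in P7 PAB hearts. The 4 atrial markers summed to 119.5 to 167.5 CPM in P7 sham and to 1422 and 1922 CPM in P7 PAB hearts. Nppa, which is also a hypertrophy marker, gave most of that rise (means of 72.4 and 1525 CPM). Nppa and Myl4 (36.3 and 89.8 CPM) were called higher, and Myl7 and Sln did not pass the test. The 6 fibroblast markers summed to 4784 to 4994 CPM in P7 sham and to 3315 and 4184 CPM in P7 PAB hearts, with Col3a1 and Pdgfra called lower. The 6 endothelial markers summed to 1384 to 1457 CPM and to 1154 and 1277 CPM, with Egfl7 called higher and, at a smaller size, Emcn higher and Cdh5 and Kdr lower. The 6 erythroid markers summed to 2242 to 3035 CPM and to 3405 and 3905 CPM, with 0 passing edgeR's test and Hba-a1 and Hbb-bt at an unadjusted p under 0.05. The part of the mix of cells in the change of the proteasome genes was not tested.

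**Figure D2:**
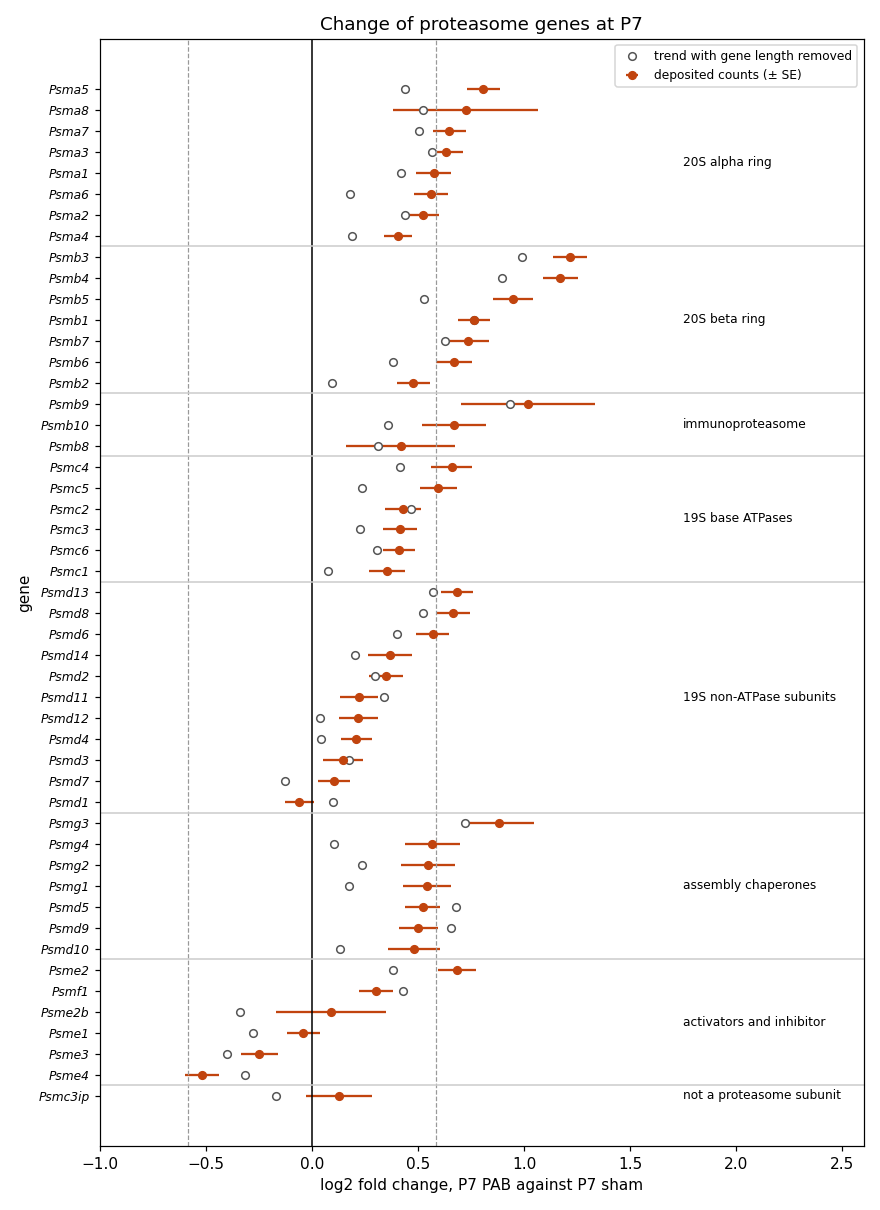
Log2 fold change of P7 PAB against P7 sham hearts for each proteasome gene, grouped by class, from the deposited counts (filled, ± SE of the edgeR fit) and with the trend with gene length removed (open). Dashed lines mark a 1.5-fold change. All 7 constitutive beta subunits lie to the right of 0 in both fits, and Psme3 and Psme4 lie to the left.

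The constitutive beta ring changed most. All 7 genes were higher at any size in P7 PAB hearts and 6 were called, with a median log2 change of 0.76. Psmb3, which encodes a beta subunit without a protease site, was at 67.2, 69.7 and 59.9 CPM in P3 sham hearts and at 71, 69 and 65.9 CPM in P3 PAB hearts. In P7 sham hearts it was at 55.7, 50.4 and 49.8 CPM, and in P7 PAB hearts at 126 and 116 CPM. Both P7 PAB libraries were thus above all others, and the P7 sham libraries were the lowest. The log2 fold change at P7 was 1.21 (SE 0.08, adjusted p = 1.4e-07). Psmb4, another subunit without a protease site, stood at 68.3 ± 4.01 CPM (SD, n = 3) in P7 sham hearts and at 153.7 ± 16.4 CPM (SD, n = 2) in P7 PAB hearts, a change of 1.17 on the log2 scale (edgeR adjusted p = 2.1e-07). Psmb1 rose by 1.7-fold.

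The 3 constitutive protease subunits rose together. Psmb5, which carries the chymotrypsin-like site, was at 68.7, 79.1 and 64.8 CPM in P3 sham, at 76.3, 83.4 and 73.2 CPM in P3 PAB and at 67.1, 56.4 and 57.1 CPM in P7 sham hearts. In P7 PAB hearts it was at 118 and 114 CPM, above every other library (log2 change 0.95, SE 0.09, adjusted p = 3.6e-06). Psmb6, with the caspase-like site, was at 96.8, 100.1 and 87.3 CPM in P3 sham, at 105, 105 and 103 CPM in P3 PAB, at 124, 103 and 113 CPM in P7 sham and at 192 and 168 CPM in P7 PAB hearts. The groups at P7 did not overlap for either gene. The change of Psmb6 was 0.67 (SE 0.09, adjusted p = 2.5e-05), and without P7 PAB library 1 it was 0.57, below the 1.5-fold threshold. Psmb7, with the trypsin-like site, was at 111, 115 and 92.4 CPM in P3 sham, at 119, 112 and 100.2 CPM in P3 PAB and at 104, 92.7 and 89 CPM in P7 sham hearts. It reached 166 and 151 CPM in P7 PAB hearts (log2 change 0.74, SE 0.10, adjusted p = 3.8e-05), again with no overlap at P7. With the length trend removed, the changes of Psmb5, Psmb6 and Psmb7 were 0.53, 0.38 and 0.63, so that Psmb5 and Psmb6 fell below the fold threshold.

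Psmb2 had the smallest change of the constitutive beta ring. It was at 60.9, 62.1 and 54.5 CPM in P3 sham, at 60.9, 63.4 and 64.2 CPM in P3 PAB, at 81.7, 73.2 and 72.8 CPM in P7 sham and at 110 and 101 CPM in P7 PAB hearts. Its P7 groups did not overlap, but its change of 0.48 (SE 0.08, adjusted p = 0.00019) was under 1.5-fold, and with the length trend removed it was 0.09 (edgeR adjusted p = 0.27).

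RefSeq (GRCm38.p6) gave promoter windows for 42 of the 50 genes, and those of beta subunits that rose at P7 are shown because they moved together. Missing were Psma8, Psmb1, Psmb2, Psmb7, Psmc3, Psmd3, Psmd7 and Psmg2. The 250 bases before each start were searched on both strands for TGACNNNGC, the core of the antioxidant response element bound by NRF1 and NRF2, and for GAAANNGAA and TTCNNNGAA, the interferon-stimulated element and the gamma-activated site. Matches are in capitals. The windows lie, on the strand of each gene, at chr11:97703264-97703433 (Psmb3, +), chr3:94886959-94887108 (Psmb4, -), chr14:54617996-54618145 (Psmb5, -) and chr11:70525207-70525356 (Psmb6, +), and each ends just before the start:
Psmb3: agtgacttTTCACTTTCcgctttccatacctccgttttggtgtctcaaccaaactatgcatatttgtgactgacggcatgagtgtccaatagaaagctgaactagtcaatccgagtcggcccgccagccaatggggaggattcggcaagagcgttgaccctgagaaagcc
Psmb4: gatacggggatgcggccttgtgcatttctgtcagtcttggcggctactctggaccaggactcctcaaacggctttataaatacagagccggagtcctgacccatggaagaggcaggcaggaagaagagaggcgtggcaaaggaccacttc
Psmb5: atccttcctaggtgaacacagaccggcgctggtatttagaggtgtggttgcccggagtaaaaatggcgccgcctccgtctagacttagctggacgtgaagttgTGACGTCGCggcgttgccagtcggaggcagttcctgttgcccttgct
Psmb6: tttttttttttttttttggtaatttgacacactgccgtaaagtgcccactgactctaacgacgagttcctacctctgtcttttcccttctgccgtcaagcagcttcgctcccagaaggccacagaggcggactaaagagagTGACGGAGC

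TGACNNNGC was present in Psmb5 at position -47 from the start and in Psmb6 at -9, and also in Psmc6, Psmd9 and Psmd12. These were 5 of 42 genes (11.9%), where 11.5% of all genes with a window held it. Psmb3 held GAAANNGAA on its opposite strand at -162, as did Psmd4, and Psmd9 held it on its own strand, which made 3 of 42 (7.14%) against 8.18% of all genes. The share of proteasome genes with each motif was thus near that of all genes. Psmb4 held none of the 3 motifs.

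Psmb8, Psmb9 and Psmb10 moved less evenly. Of these 3 immunoproteasome genes, Psmb9 and Psmb10 were called higher in P7 PAB hearts, with the spread of the P7 sham libraries wide for all 3. Psmb8, the counterpart of Psmb5, was at 5.24, 4.18 and 3.31 CPM in P3 sham, at 3.94, 4.63 and 4.71 CPM in P3 PAB, at 11.5, 6.66 and 5.2 CPM in P7 sham and at 12.2 and 8.38 CPM in P7 PAB hearts. Its P7 groups overlapped, since P7 sham library 1 was above P7 PAB library 2. The change at P7 was 0.42 (SE 0.26, adjusted p = 0.20). Without P7 sham library 1 it was 0.81 (edgeR adjusted p = 0.0056) and was called. Psmb9, the counterpart of Psmb6, was at 2.62, 1.79 and 2.62 CPM in P3 sham, at 1.58, 2.21 and 1.3 CPM in P3 PAB, at 5.42, 1.99 and 2.39 CPM in P7 sham and at 7.29 and 5.82 CPM in P7 PAB hearts. The P7 PAB libraries were the highest of all 11, with P7 sham library 1 next. Psmb9 rested on 41 to 167 counts per library at P7.

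The change of Psmb9 at P7 was 1.02 (SE 0.32, adjusted p = 0.017), and 1.58 without P7 sham library 1 (edgeR adjusted p = 0.00015). The call was lost without P7 sham library 2 (0.77, edgeR adjusted p = 0.067), P7 sham library 3 (0.83, edgeR adjusted p = 0.070) or P7 PAB library 1 (0.84, edgeR adjusted p = 0.14), and with the term for Xist and Ddx3y (1.28, edgeR adjusted p = 0.14). Psmb10, the counterpart of Psmb7, was at 34.4, 36.5 and 27.6 CPM in P3 sham, at 40.6, 41.1 and 38.3 CPM in P3 PAB, at 42, 28 and 31.3 CPM in P7 sham and at 60.8 and 46.3 CPM in P7 PAB hearts. At both ages the PAB libraries of Psmb10 all exceeded the sham libraries. Its change at P7 was 0.67 (SE 0.15, adjusted p = 0.0022), and 0.85 without P7 sham library 1. The call was lost without P7 sham library 2 (0.55) or P7 PAB library 1 (0.46, edgeR adjusted p = 0.063), with the length trend removed (0.36) and with the term for Xist and Ddx3y (0.77, edgeR adjusted p = 0.055).

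**Figure D3:**
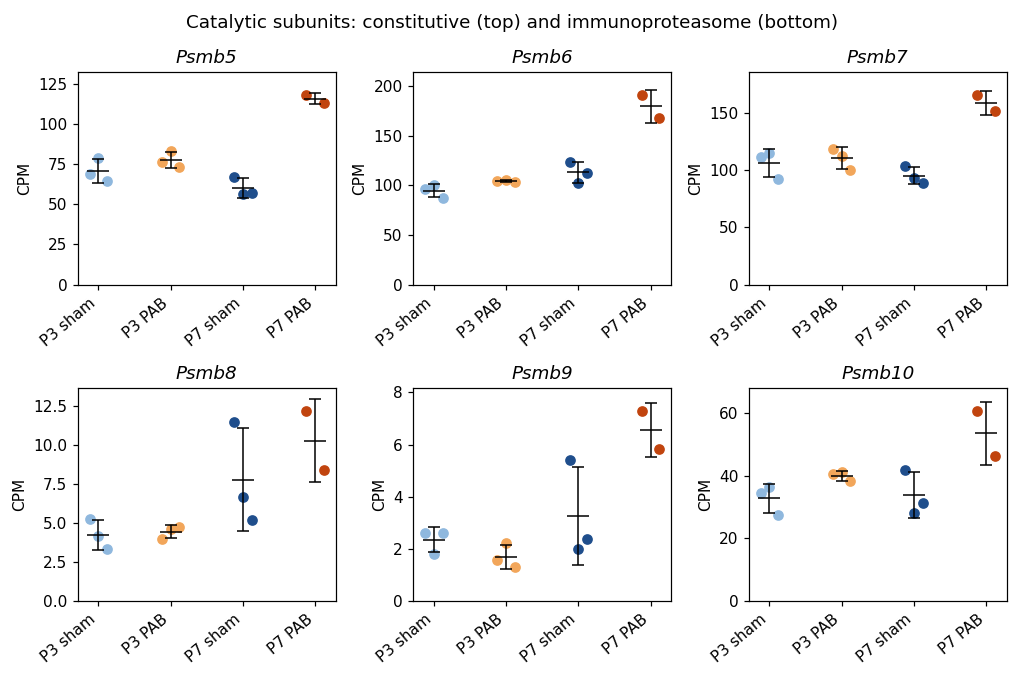
CPM of the constitutive protease subunits (top row) and of their immunoproteasome counterparts (bottom row) in each library, by group, with bars at the mean ± SD (n = 3, and 2 in P7 PAB). Each vertical axis starts at 0 and has its own range. The P7 PAB points lie above all others for Psmb5, Psmb6 and Psmb7, while for Psmb8 P7 sham library 1, at 11.5 CPM, lies between the P7 PAB points at 12.2 and 8.38 CPM.

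Per kilobase of exon, the constitutive form prevailed in every library. The ratio of Psmb8 to Psmb5 was 0.0136 to 0.0203 in P3 sham, 0.0137 to 0.0171 in P3 PAB, 0.0242 to 0.0455 in P7 sham and 0.0196 to 0.0273 in P7 PAB hearts. That of Psmb9 to Psmb6 was 0.00914 to 0.0154, 0.00644 to 0.0107, 0.0099 to 0.0224 and 0.0177 to 0.0195 in the same order. Psmb10 stood closer to its counterpart, with a ratio to Psmb7 of 0.599 to 0.638, 0.686 to 0.766, 0.606 to 0.811 and 0.615 to 0.735. The size of these ratios depends on the annotated exonic lengths, such as 3381 bases for Psmb8 and 899 for Psmb5. In exact two-sided permutation tests, for which 3 against 3 and 3 against 2 libraries cannot go below p = 0.1, a difference between PAB and sham hearts could not pass 0.05. The log2 differences at P7 were -0.49 for Psmb8 to Psmb5 (exact p = 0.4), 0.47 for Psmb9 to Psmb6 (exact p = 0.4) and -0.06 for Psmb10 to Psmb7 (exact p = 0.8). At P3 they were -0.05 (exact p = 0.9), -0.62 (exact p = 0.2) and 0.24 (exact p = 0.1), and after adjustment over the 3 ratios the lowest p was 0.3 by the exact permutation test. Psmb10 to Psmb7 was the ratio whose P3 groups did not overlap.

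Genes of MHC class I antigen processing and its regulation, the pathway that the immunoproteasome feeds, were measured in the same libraries. Of the 10 tested, 0 were called in either direction at P7, with Irf1 higher (log2 change 0.54, edgeR adjusted p = 0.0011) and Erap1 lower (-0.31, edgeR adjusted p = 0.0058) at any size. The 10 genes summed to 920, 363 and 356 CPM in P7 sham and to 450 and 427 CPM in P7 PAB hearts. With P7 sham library 1 included, the SE of the change was 0.35 for B2m, 0.34 for H2-D1 and 0.50 for H2-K1. Tap1, a peptide transporter gene that lies beside Psmb9, had a change of 0.49 with an SE of 0.25 (edgeR adjusted p = 0.12), and Psmb9 shares 5.79% of its exonic length with Tap1 on the opposite strand. The strand setting of the counting is not stated, so reads in that stretch cannot be assigned between them. Of 10 leukocyte markers, 0 were higher and 1, Itgam, was lower at P7. The 8 markers of T cells and thymus summed to 0.989 to 3.7 CPM over all libraries, and Foxn1, Ptcra and Rag1 were at or near 0. Psmb11, the beta subunit of the thymus, had 1 count in 1 P3 sham library and 0 in the other 10, where 0 counts allow up to 0.122 to 0.148 CPM. The part of immune cells in the changes of Psmb8, Psmb9 and Psmb10 was not tested.

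The windows of Psmb8 and Psmb9 are shown because they are the inducible pair, which lie close together at chr17:34198045-34198194 (Psmb8, +) and chr17:34187331-34187480 (Psmb9, -). GENCODE places the start of Psmb8 at 34197721 and that of Psmb9 at 34187764, so both RefSeq windows lie inside the GENCODE genes. Sequence before those GENCODE starts was not searched for this pair. Psmb8 held TTCNNNGAA at -97, in capitals, and Psmg1 was the only other proteasome gene with it (2 of 42, 4.76%, against 8.13% of all genes). Psmb9 held none of the 3 motifs in its window:
Psmb8: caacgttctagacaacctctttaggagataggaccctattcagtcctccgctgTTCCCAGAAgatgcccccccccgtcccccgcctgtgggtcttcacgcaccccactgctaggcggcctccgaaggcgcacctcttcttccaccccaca
Psmb9: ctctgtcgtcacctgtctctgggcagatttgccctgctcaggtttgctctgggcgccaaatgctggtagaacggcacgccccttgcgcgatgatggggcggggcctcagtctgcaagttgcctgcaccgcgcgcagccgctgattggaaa

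Alpha ring genes, whose products gate the entry to the core, rose more evenly. Of 8 tested, 7 were higher at any size and 3 (Psma3, Psma5 and Psma7) were called, with a median log2 change of 0.60. Psma5 was at 46.4, 45.2 and 45.9 CPM in P3 sham, at 47.7, 45.3 and 41.6 CPM in P3 PAB and at 46.2, 44.6 and 40.5 CPM in P7 sham hearts. At 79.1 and 73.9 CPM, both P7 PAB libraries were above all the others, which lay close together (log2 change 0.81, SE 0.08, adjusted p = 2.8e-06). Psma4 had the smallest change of the ring. It was at 80.4, 78 and 71.6 CPM in P3 sham, at 78.1, 78.2 and 77 CPM in P3 PAB, at 92, 93 and 88.9 CPM in P7 sham and at 123 and 119 CPM in P7 PAB hearts. The groups at P7 did not overlap, and the change was 0.40 (SE 0.07, adjusted p = 0.00018). Psma8, the alpha subunit of the testis, was near 1 CPM or below in every library, with 11 to 27 counts, and its change of 0.72 did not pass the test (SE 0.34, edgeR adjusted p = 0.10). With the length trend removed, 6 alpha ring genes were higher at any size and 0 passed the fold threshold.

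In the 19S base, all 6 ATPase genes were higher at any size and Psmc4 and Psmc5 were called, with a median log2 change of 0.42. After removal of the length trend, 5 were higher at any size and 0 were called, and the median was 0.27. Psmc4 was at 81.1, 83 and 74.8 CPM in P3 sham, at 87.8, 81.2 and 83.4 CPM in P3 PAB, at 84.1, 70.5 and 69.3 CPM in P7 sham and at 129 and 106 CPM in P7 PAB hearts. Both P7 PAB libraries were above the other 9, and library 1 of P7 PAB was the higher. The change was 0.66 (SE 0.10, adjusted p = 7.2e-05) and fell to 0.51, below the fold threshold, without that library. Psmc1 had the smallest change of the base. It was at 83.2, 81.5 and 76.6 CPM in P3 sham, at 88.1, 88.3 and 83.3 CPM in P3 PAB, at 89.7, 82 and 78.6 CPM in P7 sham and at 116 and 96.7 CPM in P7 PAB hearts. Its P7 groups did not overlap (log2 change 0.35, SE 0.08, adjusted p = 0.0030), but with the length trend removed its change was 0.075 (edgeR adjusted p = 0.44).

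The 11 non-ATPase genes of 19S were split. At any size 6 were higher (Psmd2, Psmd4, Psmd6, Psmd8, Psmd13 and Psmd14), with Psmd8 and Psmd13 called, and 5 did not pass the test. Their median log2 change was 0.22, the lowest among the classes of 20S and 19S subunits. After removal of the length trend, 5 were higher at any size (median 0.20) and 0 were called, with Psmd8 at 0.52 and Psmd13 at 0.57. Psmd13, a lid subunit, was at 71.8, 72.3 and 65.6 CPM in P3 sham, at 77.5, 71.4 and 66.5 CPM in P3 PAB, at 62, 60.4 and 58.3 CPM in P7 sham and at 98.9 and 94.6 CPM in P7 PAB hearts. The P7 PAB libraries were the highest and the P7 sham libraries the lowest (log2 change 0.68, SE 0.08, adjusted p = 7.8e-06). Psmd13 shares 10.1% of its exonic length with Sirt3 on the opposite strand. Psmd1, the large scaffold subunit of the base, was at 118, 115 and 104 CPM in P3 sham, at 116, 110 and 111 CPM in P3 PAB, at 118.7, 120.4 and 119.5 CPM in P7 sham and at 117 and 112 CPM in P7 PAB hearts. These values differed little, with a change of -0.06 at P7 (SE 0.07, adjusted p = 0.50). Psmd14, the deubiquitinase of the lid, had a change of 0.37 (SE 0.10, edgeR adjusted p = 0.010), and Psmd4, a ubiquitin receptor, one of 0.21 (SE 0.07, edgeR adjusted p = 0.027). Neither passed the test with the length trend removed (0.20 and 0.041, edgeR adjusted p = 0.12 and 0.64).

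All 7 assembly chaperones were higher at any size in P7 PAB hearts, with a median log2 change of 0.54, and Psmg3 was called. Psmg1 to Psmg4 help to build the alpha ring, and Psmd5, Psmd9 and Psmd10 the 19S base. Psmg3 was at 6.05, 7.65 and 6.85 CPM in P3 sham, at 7.02, 8.53 and 9.42 CPM in P3 PAB, at 5.81, 4.18 and 4.28 CPM in P7 sham and at 8.69 and 8.77 CPM in P7 PAB hearts. The P7 sham libraries were the lowest, and the P7 PAB libraries lay within the range of P3 PAB. The change was 0.88 (SE 0.17, adjusted p = 0.00056), and with the term for Xist and Ddx3y it was 0.62 and not called (edgeR adjusted p = 0.13). Psmd10, also known as gankyrin, was at 9.06, 9.51 and 9.29 CPM in P3 sham, at 11, 10 and 8.04 CPM in P3 PAB, at 9.51, 9.96 and 8.59 CPM in P7 sham and at 12.8 and 13.3 CPM in P7 PAB hearts. It was highest in P7 PAB (log2 change 0.48, SE 0.12, adjusted p = 0.0050). With the length trend removed, Psmd10 was at 0.13 (edgeR adjusted p = 0.42) and 3 of the 7 chaperones were higher.

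The activators and the inhibitor had no common direction. Of 6 genes, 2 were higher and 2 lower at any size at P7, with a median log2 change of 0.02. After removal of the length trend, 2 were higher and 3 lower, and the median was -0.30. Psme1 and Psme2 encode both subunits of the PA28 cap, which is induced by interferon, and lie near each other on chromosome 14. Psme1 was at 83, 89.9 and 86.4 CPM in P3 sham, at 81.4, 82.7 and 86.6 CPM in P3 PAB, at 98.6, 84.3 and 84.5 CPM in P7 sham and at 87.9 and 85.2 CPM in P7 PAB hearts. The P7 groups overlapped (log2 change -0.04, SE 0.08, adjusted p = 0.69), although with the length trend removed Psme1 was lower (-0.28, edgeR adjusted p = 0.0038). Psme2 was at 30, 28.3 and 32.8 CPM in P3 sham, at 30.8, 30.3 and 31 CPM in P3 PAB, at 35.4, 30.9 and 29.3 CPM in P7 sham and at 53.8 and 48.4 CPM in P7 PAB hearts. Both P7 PAB libraries were well above the other 9 (log2 change 0.68, SE 0.09, adjusted p = 3.3e-05). Removing the length trend put Psme2 at 0.38 (edgeR adjusted p = 0.0025), below the fold threshold. Psme2b, a near-identical relative of Psme2, was at 1.2 to 1.93 CPM, and reads of the pair cannot be assigned with certainty. The difference between the changes of Psme1 and Psme2 was not tested.

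Psme3, the cap subunit of the nucleus, was at 63.9, 59.4 and 56.5 CPM in P3 sham, at 62.4, 61.4 and 64.9 CPM in P3 PAB, at 69.4, 64.3 and 64 CPM in P7 sham and at 50.4 and 60.6 CPM in P7 PAB hearts. Both P7 PAB libraries were below the P7 sham libraries but well apart from each other, and the change was -0.25 (SE 0.09, adjusted p = 0.027). Without P7 sham library 1 it was -0.21 (edgeR adjusted p = 0.064), and with the term for Xist and Ddx3y -0.11 (edgeR adjusted p = 0.63). Psme4, which encodes the cap PA200, was at 106, 105 and 116 CPM in P3 sham, at 107, 101 and 103 CPM in P3 PAB, at 112, 135 and 128 CPM in P7 sham and at 87.3 and 87.5 CPM in P7 PAB hearts. It was lowest in P7 PAB (log2 change -0.52, SE 0.08, adjusted p = 0.00013). That change was under 1.5-fold, and without P7 sham library 1 it was -0.59 and called. Removing the length trend put it at -0.32 (edgeR adjusted p = 0.0024). Psmf1, the inhibitor PI31, was at 23.5, 24 and 25.2 CPM in P3 sham, at 22.9, 22.4 and 24.4 CPM in P3 PAB, at 20.6, 22.5 and 20.9 CPM in P7 sham and at 27.4 and 25.2 CPM in P7 PAB hearts. The P7 groups did not overlap, with P7 PAB library 2 near the highest P3 sham library (log2 change 0.30, SE 0.08, adjusted p = 0.0069). Psmc3ip, the gene that is no proteasome subunit, was at 4.93 to 8.37 CPM with a change of 0.13 (SE 0.15, edgeR adjusted p = 0.54).

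The window of Psme4, shown because it is the member that fell most, lies at chr11:30771625-30771774 on the + strand and held none of the 3 motifs:
Psme4: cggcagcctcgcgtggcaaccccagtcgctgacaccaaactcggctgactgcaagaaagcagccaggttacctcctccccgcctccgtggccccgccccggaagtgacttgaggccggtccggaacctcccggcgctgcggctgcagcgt

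**Figure D4:**
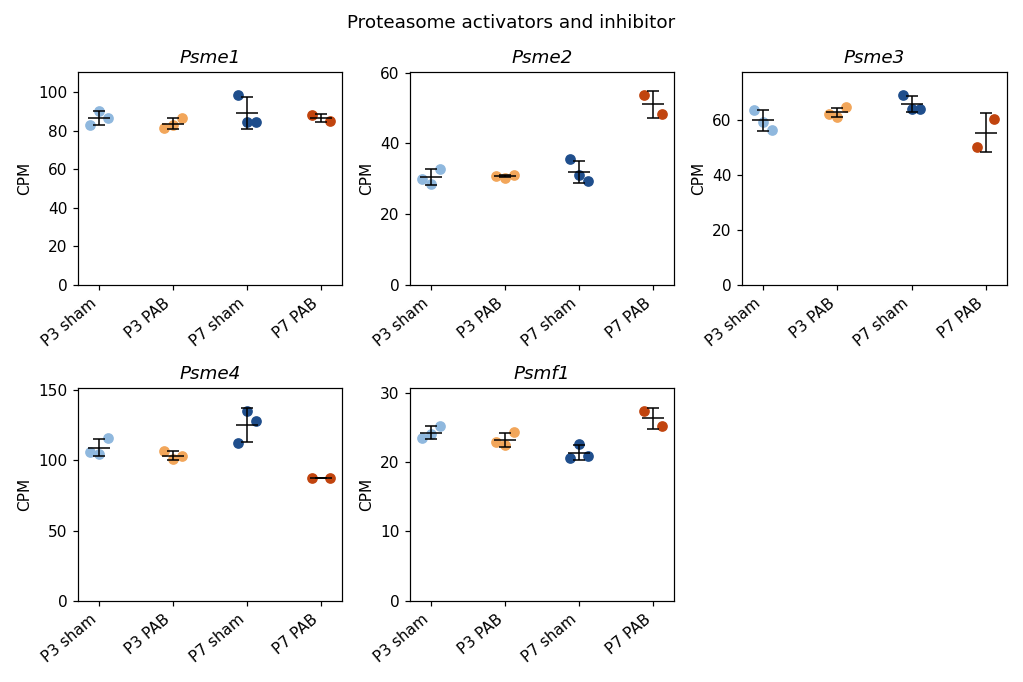
CPM of the activator genes Psme1, Psme2, Psme3 and Psme4 and of the inhibitor Psmf1 in each library, by group, with bars at the mean ± SD (n = 3, and 2 in P7 PAB) and axes that start at 0. Psme2 is at 53.8 and 48.4 CPM in P7 PAB hearts, above all other libraries, and Psme4 is at 87.3 and 87.5 CPM, below them.

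Levels per kilobase of exon, averaged over all 11 libraries, were divided by the union of all annotated exons, so ranks depend on the annotation. That length was 899 bases for Psmb5, 1872 for Psmb6 and 4595 for Psmb1. By this measure Psmb5 was highest at 86.8 CPM per kilobase, followed by Psma6 (67.7), Psmb6 (63), Psmb2 (60.8) and Psmc3 (60.2). Per kilobase, Psmb5 was highest in each of the 4 groups, and the order of the others differed between groups. Without division by length the mean of Psmb5 was 78 CPM, below Psmb1 (84.9), Psmb4 (99.99), Psmb7 (113.8) and Psmb6 (117.9). Psmb10 was at 22.8 CPM per kilobase, near Psmc6 at 23 and Psma3 at 22.1. Psmb8 and Psmb9 were at 1.88 and 0.87 CPM per kilobase, below all 32 constitutive 20S and 19S genes except Psma8 (0.337). The activator Psme1 stood at 39.1 CPM per kilobase, with Psme3 at 20.9, Psme2 at 19.6 and Psme4 at 12.9. After TMM scaling, all 50 genes summed to 2806 to 3096 CPM in P3 sham, 3037 to 3198 CPM in P3 PAB, 2871 to 3183 CPM in P7 sham, and 4319 and 3956 CPM in P7 PAB hearts. The sums of the P7 PAB libraries were above all others, and the other 3 groups overlapped. As a share of the total count, they took 0.317 to 0.346% in the P3 libraries, 0.255 to 0.281% in P7 sham and 0.383 and 0.366% in P7 PAB hearts.

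With age alone, few proteasome genes passed the fold threshold. From P3 to P7 in sham hearts, 1 gene (Psmb8) was called higher and 0 lower, where 5.62% of all genes were higher and 5.73% lower. At any size 7 were higher and 11 lower, against 16.2% and 16.8% of all genes, and the median log2 change was 0.01. High Xist marked all 3 P7 sham libraries and 1 of the 3 P3 sham libraries, and in a fit with a term for Xist and Ddx3y 0 of the 49 genes were higher and 2 lower at any size (Psmb3 and Psmb4), against 6.74% and 8.22% of all genes. Psmb8 rose by 0.86 (SE 0.25, adjusted p = 0.016), and the call was lost without P7 sham library 1, without P3 sham library 3 and with that term. Of 10 genes of MHC class I antigen processing, 3 were also called higher with age in sham hearts (B2m by 1.07, H2-K1 by 1.40 and Nlrc5 by 1.52). The leukocyte marker Lyz2 was also called higher (0.80). The 10 MHC class I genes summed to 920 CPM in P7 sham library 1 and to 363 and 356 CPM in libraries 2 and 3. In P3 sham hearts the sum was 310 to 333 CPM. The P7 sham SD was 127.2 CPM on a mean of 170.9 CPM for B2m, and 97.5 on 98 CPM for H2-K1. The part of the MHC class I genes and of Lyz2 in the change of Psmb8 was not tested. Of the constitutive beta ring, Psmb2, Psmb6 and Psmb1 were higher and Psmb4 (-0.45, adjusted p = 0.00037), Psmb3 (-0.34, adjusted p = 0.0027) and Psmb5 (-0.24, adjusted p = 0.048) were lower in edgeR's fit. Among the assembly chaperones Psmg1, Psmg3, Psmg4 and Psmd5 were lower. Of these 6 beta ring and 4 chaperone genes, Psmb3 (-0.37, edgeR adjusted p = 0.032) and Psmb4 (-0.48, edgeR adjusted p = 0.0098) alone passed with the term for Xist and Ddx3y.

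From P3 to P7 in PAB hearts, 14 of the 49 genes were called higher and 0 lower, where 9.50% of all genes were higher and 8.20% lower. At any size 33 were higher and 2 lower, against 22.3% and 21.2%. The median was 0.43. Removing the length trend left 7 genes called higher and a median of 0.27, in a fit that called 999 of 15808 genes higher and 1150 lower. When libraries were scaled only by their totals, 3 genes were called higher, with 645 of all genes called higher and 3068 lower, and at any size 23 were higher and 6 lower, against 10.4% and 40.2% of all genes. Psmb9 had the largest change at 1.96 (SE 0.34, adjusted p = 0.00029), followed by Psmb8 at 1.22 (SE 0.27, adjusted p = 0.0018) and Psmb1 at 0.94 (SE 0.07, adjusted p = 6.1e-07). The MHC class I genes Nlrc5 (1.59), Irf1 (0.91) and Tap1 (0.87) and the leukocyte marker Lyz2 (0.95) were also called higher with age in PAB hearts, and their part in the immunoproteasome changes was not tested. All 7 constitutive beta genes were higher, including Psmb3 (0.81) and Psmb4 (0.58), which were lower with age in sham hearts. Psme4 fell by 0.24 (SE 0.08, edgeR adjusted p = 0.024) and Psmd3, a lid subunit, by 0.30 (SE 0.10, edgeR adjusted p = 0.020). Mitochondrial genes took 11.4 to 13.1% of counts at P3 and 18 to 22.2% at P7. When libraries were scaled by their total count, the median change with age in sham hearts was -0.31 for all genes and -0.30 for the proteasome genes, so both shifted alike. Of the proteasome genes 0 were then higher and 34 lower at any size, against 4.59% and 51.2% of all genes.

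**Figure D5:**
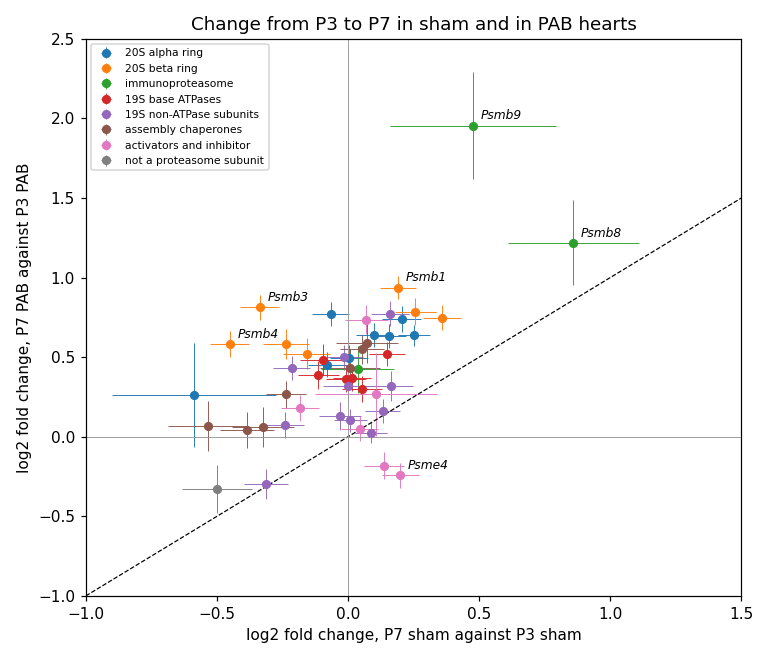
Log2 fold change from P3 to P7 in sham hearts (horizontal) and in PAB hearts (vertical) for the 49 tested genes, coloured by class, with bars of ± SE and a dashed line where both are equal. Most genes lie above the line, with Psmb9 at 0.48 in sham and 1.96 in PAB hearts, and Psme4 lies below it.

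The change with PAB differed between ages for 31 of the 49 genes by the interaction test at an adjusted p of at most 0.05, with 30 higher and 1 lower at P7, where 13.3% and 12.6% of all genes were. The 1 lower gene was Psme4. All 7 constitutive beta genes and 7 of 8 alpha genes were among the 30. Of the immunoproteasome genes, Psmb9 had a difference of 1.48 (SE 0.47, adjusted p = 0.030), while Psmb8 (0.36, SE 0.37) and Psmb10 (0.39, SE 0.21) did not pass the test (edgeR adjusted p = 0.51 and 0.18). With the length trend removed, 21 of the 49 genes were higher and 1 lower by this test, against 10.4% and 8.93% of all genes. The median difference then went from 0.43 to 0.27. With the term for Xist and Ddx3y, 25 were higher and 1 lower, against 7.84% and 6.65% of all genes.

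Of 27 other genes of the ubiquitin and proteasome pathway, 4 were called higher and 0 lower at P7, and at any size 8 were higher and 3 lower. The shares of all genes were 9.63% and 8.59% called, and 22.8% and 22.1% at any size. Removing the length trend gave 10 higher and 6 lower at any size, in a fit where 19.7% and 18% of all genes were. The median log2 change of the 27 genes was 0.02 in the main fit and 0.12 with the length trend removed. Pomp, the maturation factor of the 20S core, rose by 0.98 (SE 0.08, edgeR adjusted p = 1.2e-06), and Shfm1, which encodes a small 19S subunit, by 0.59 (SE 0.08, edgeR adjusted p = 2.5e-05). Rps27a, which encodes ubiquitin fused to a ribosomal protein, was also called (1.05). Nfe2l1, the transcription factor NRF1 that induces proteasome genes, was lower (-0.55, SE 0.07, edgeR adjusted p = 2.7e-05), as was Ddi2, which encodes the protease that activates it (-0.57, SE 0.07, edgeR adjusted p = 2.3e-05). AI314180, the gene of a proteasome adaptor, was the other lower gene (-0.37). The polyubiquitin gene Ubb was higher (0.44).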

How the data were processed

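RNA was sequenced from 11 libraries of mouse hearts, in 4 groups. The authors aligned reads to GRCm38 (mm10) with STAR 2.5.2b, which the submitters' processing notes name, and deposited raw counts per gene name, 1 column per library and without normalization. Which tool counted the reads, whether it used strand and which Gencode release it read are not given in the sources used here. Groups came from the labels.

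The main tests used edgeR 4.0.16 in R 4.3.3 (TMM, filterByExpr, quasi-likelihood fit of all 11 libraries, since P7 PAB has 2). DESeq2 1.42.0, scaling by the total count or by RLE size factors, other filters, no fold threshold, a fit of 2 groups, a replicate block, removal of each library's trend with exonic length (lowess, span 0.3, for the 14936 tested genes with a length), a term for Xist and Ddx3y, and leaving out each library were alternatives. The stricter filter asked for a mean count of 50 or more and for 10 or more counts in each library of some group. The unfiltered fit used bias-adjusted residuals because its prior on the variance was otherwise infinite. Leaving out Psmc3ip was added after seeing the data. Steps were tested on simulated data. Intervals of 0 counts cover counting error only, at 3 counts. With the depth given, precision was limited mainly for Psma8, Psmb8, Psmb9 and Psme2b.

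The rule for members, their classes, the pathway and marker lists and the tests were chosen with earlier results of these data known. Of the names, 4 with -ps were left out. Values in every library are given for the immunoproteasome genes and their counterparts, the activators other than Psme2b, and the inhibitor. In each other class they are given for the tested gene with the highest and the lowest change at P7. Other genes are named with a level or a change, and some genes of the pathway list are not reported here by name. Gene positions and lengths (union of exons) are those of GENCODE M21, and promoter windows those of RefSeq on GRCm38.p6. Exons of 15 members overlap those of other genes, 12 on the opposite strand, over 0.342 to 25.5% of exonic length. The plots used matplotlib 3.10.9 under Python 3.11.15.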

Additional observations from a re-analysis of the deposited data

Results flagged for a closer look

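The change with PAB differed between P3 and P7, by edgeR's interaction test, for 31 proteasome genes. Among those with values in every library, the log2 change at P7 minus that at P3 was 1.48 for Psmb9, 1.15 for Psmb3, 0.84 for Psma5, 0.82 for Psmb5, 0.68 for Psmb7, 0.67 for Psme2, 0.65 for Psmd13 and 0.58 for Psmc4. It was 0.53 for Psmb6, 0.39 for Psmb2, 0.38 for Psma4, 0.36 for Psmf1 and -0.44 for Psme4, the gene of the PA200 cap.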

How the results depend on the processing

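With PAB against sham at P7, 16 to 20 members were higher under the other scalings, filters, tools and fits, save for 37 with no fold threshold, 8 with the length trend removed and 7 with that and the replicate block together, and 13 to 23 with each library left out. For lower members the number was 2 with no fold threshold and 0 to 1 with each library left out (1 without P7 sham replicate 1). From P3 to P7 in sham hearts, the number higher was 0 with scaling by the total count, 7 with no fold threshold, 0 with the Xist and Y term, and 0 to 1 with each library left out (0 without P3 sham replicate 3 or P7 sham replicate 1). The number lower was 8 with scaling by the total count, in a fit that called 2881 of the 15808 genes tested lower. The number lower was 11 with no fold threshold, 1 with the length trend removed, 1 with that and the block, and 0 to 2 with each library left out. It was 2 without P3 sham replicate 1 and 1 without P7 sham replicate 1. In PAB hearts, the number higher with age was 3, 33, 7 and 7 under scaling by the total count, no fold threshold, length trend removed, and that with the block. The number lower was 2 with no fold threshold, 1 with the length trend removed and 0 to 1 with each library left out (1 without P7 PAB replicate 1). The interaction gave 21 to 35 with each library left out. The change of Psmd1 at P7 reversed to 0.098 with the length trend removed, 0.069 with that and the block, and 0.042 with the Xist and Y term, that of Psme1, which ranged from -0.081 to 0.036 with each library left out, to 0.036 without P7 sham replicate 1, and the P3 ratio of Psmb8 to Psmb5 to 0.007 with the length trend removed. The cause was not tested. Counts at P3 stayed at 0 under every alternative run.

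Same-numbered libraries of different groups had correlations of their deviations from -0.110 to 0.180. Libraries with different numbers were not compared in this way, so whether the replicate numbers of the labels pair the libraries was not tested. With the replicate block, 16 members were higher at P7 and 29 had an interaction. Among the values of single named members, 424 kept direction and side of the threshold, 25 lost the call, 9 gained it and 4 changed sign.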
